A study of Mus musculus with 6 samples.

Results

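Immediate early genes were followed in naive CD4 T cells that lacked Trim28 and in cells of their wild-type littermates. The set held 39 listed genes, taken by symbol, and 38 of them matched a row of the deposited table, which named 16911 genes in all. Jund matched no row and was not analysed here. Where a gene had several transcript rows, as Egr3, Nr4a2, Klf10 and Tnfaip3 did, the row with the highest total stood for it. Measured values did not enter the choice, but the set was proposed with earlier results of these data known.

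The knockout group was 3 libraries (KO1, KO2 and KO3) of the genotype Trim28 KO, and the control group was 3 libraries (WT1, WT2 and WT3) of wild-type littermates. Both came from C57BL/6 mice, and both were naive CD4 T cells enriched with magnets, sorted by flow cytometry and lysed without any stimulation named in the labels. The labels give neither age, nor the design of the knockout allele or the cells in which it acts, nor whether each library came from its own animal. The p-values therefore cover only the spread between these libraries, whose source is not stated, although Y-linked transcripts given below differed between libraries of the same group. Stimulated cells, also named in the title, were not analysed here. Each value is a normalized read count, that is the number of reads of a transcript row divided by a size factor of the library.

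Immediate early genes are switched on within minutes of a stimulus by factors that the cell already holds, such as SRF with its Ets partners, CREB and NF-kappaB, and need no new protein. In T cells the antigen receptor drives them through the Ras-ERK cascade and calcium, and they are also known to respond when cells are handled during isolation. Many encode transcription factors of the AP-1, Egr and Nr4a families. Others encode brakes on the same signals, such as phosphatases of MAP kinases, inhibitors of NF-kappaB and proteins of the Zfp36 family, which bind AU-rich elements of messenger RNAs and hasten their decay.

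Trim28, measured as a check of the labels, had 738, 628 and 1247 normalized reads in KO1, KO2 and KO3, against 8429, 8287 and 9428 in WT1, WT2 and WT3. Depth ran from 22005759 to 44372701 recovered reads per library. All 10 listed markers of naive CD4 T cells were present, with summed levels of 134468 to 167102 in KO libraries and 159296 to 174194 in WT libraries. KO3 stood apart in markers of other cells. Its 2 CD8 markers summed to 4416, against 755 in KO1, 708 in KO2 and 561 to 1065 in WT libraries, and its 6 B cell markers to 1467, against 192 in KO1, 188 in KO2 and 171 to 324 in WT libraries. The 9 markers of activated or memory T cells summed to 8743 to 11479 in KO libraries and 7474 to 8480 in WT libraries, and the 5 markers of regulatory T cells to 2167 to 4445 in KO libraries and 1481 to 1894 in WT libraries. No marker of these lists with a row was at 0 in every library. Transcripts of 4 Y-linked genes summed to 12680 in KO2 and 13620 in WT1 and to at most 2.39 in the other libraries, and Xist was present in all 6. KO2 and WT1 thus held Xist (16359 and 12289) beside Y-linked transcripts, so sex content differed within each group. The labels do not state whether animals of both sexes were pooled.

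The promoters of some members are shown because they hold letters that match elements through which such genes are known to be induced. The windows are the 250 bases before the start site, from RefSeq on the GRCm38.p6 assembly. Capitals mark TGACG (the core of a CREB or ATF site, CGTCA on the other strand) and TGACNTCA. The latter covers the full site TGACGTCA and variants in its middle base, such as TGACATCA of the Jun promoter. Also marked are TGANTCA (an AP-1 site) and the CArG box bound by SRF. All were marked on either strand. The first 5 genes shared 1 order of libraries described further on, and Btg2, whose window holds the same full site as that of Dusp1, had the opposite order. Dusp6, Pim1, Ier5 and Nfkbia also had the order of the first 5, and their windows hold none of the marked elements. The sites of Egr proteins and of NF-kappaB, counted below, were not marked. The Nfkbia window holds an NF-kappaB site, at 29 to 20 bases before the start. Nr4a3, whose window holds TGACG, had the opposite order. A link between elements and order was not tested.
Fos promoter, chr12:85473640-85473889, plus strand: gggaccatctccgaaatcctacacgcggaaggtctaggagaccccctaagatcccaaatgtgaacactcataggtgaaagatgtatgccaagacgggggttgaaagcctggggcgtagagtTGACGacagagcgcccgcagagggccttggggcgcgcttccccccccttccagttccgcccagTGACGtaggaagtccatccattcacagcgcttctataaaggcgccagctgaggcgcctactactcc
Jun promoter, chr4:95052223-95052472, minus strand: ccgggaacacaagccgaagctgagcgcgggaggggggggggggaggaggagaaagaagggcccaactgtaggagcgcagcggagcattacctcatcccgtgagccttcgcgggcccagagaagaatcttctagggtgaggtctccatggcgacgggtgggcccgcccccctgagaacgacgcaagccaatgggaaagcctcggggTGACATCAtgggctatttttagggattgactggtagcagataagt
Klf6 promoter, chr13:5861239-5861488, plus strand: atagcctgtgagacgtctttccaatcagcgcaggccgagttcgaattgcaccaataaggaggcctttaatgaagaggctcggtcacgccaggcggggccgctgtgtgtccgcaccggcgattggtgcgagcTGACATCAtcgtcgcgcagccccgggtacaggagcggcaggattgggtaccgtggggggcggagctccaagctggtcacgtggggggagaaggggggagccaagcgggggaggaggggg
Dusp1 promoter, chr17:26508473-26508722, minus strand: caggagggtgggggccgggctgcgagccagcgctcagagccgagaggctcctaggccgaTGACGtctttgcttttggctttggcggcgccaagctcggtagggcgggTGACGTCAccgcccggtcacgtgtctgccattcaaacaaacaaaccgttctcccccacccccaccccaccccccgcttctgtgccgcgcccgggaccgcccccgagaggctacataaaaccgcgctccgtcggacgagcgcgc
Dusp5 promoter, chr19:53528895-53529144, plus strand: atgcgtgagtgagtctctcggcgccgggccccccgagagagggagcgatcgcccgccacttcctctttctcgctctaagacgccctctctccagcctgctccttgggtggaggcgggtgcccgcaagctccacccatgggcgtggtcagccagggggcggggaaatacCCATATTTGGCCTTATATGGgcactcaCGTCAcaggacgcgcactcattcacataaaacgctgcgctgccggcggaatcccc
Btg2 promoter, chr1:134079156-134079405, minus strand: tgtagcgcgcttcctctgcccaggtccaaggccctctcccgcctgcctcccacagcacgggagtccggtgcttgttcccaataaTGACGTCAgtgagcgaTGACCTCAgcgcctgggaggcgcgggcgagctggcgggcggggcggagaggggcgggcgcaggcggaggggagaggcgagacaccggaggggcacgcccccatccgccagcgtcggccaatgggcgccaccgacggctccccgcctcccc

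The window of Fos held TGACG at 129 to 125 and at 66 to 62 bases before the start. Jun and Klf6 both held TGACNTCA, at 45 to 38 and at 119 to 112 bases before the start, and no TGACG. Dusp5 held 2 adjacent CArG boxes, at 82 to 73 and 72 to 63 bases. A promoter was given for 27 of the tested members and for 9415 tested genes. None was given for Egr1, Ier2, Klf10, Zfp36l2, Nfkbiz, Sik1, Rgs1 and Cd69. Bases farther than 250 from the start were not searched, so a gene without a match may hold the element beyond its window. The core TGACG was in 15 of the 27, which is 55.6%, against 27.8% of all these genes. The pattern TGACNTCA, which admits any base at N, was in 5 (18.5%, against 6.4%). The full site TGACGTCA, which is palindromic and counts under both, was in 3 (11.1%, against 2.91%). The AP-1 site TGANTCA was in 2 (7.41%, against 4.08%) and the CArG box in 2 (7.41%, against 1.07%), those being Dusp5 and Zfp36. The motif GCGNGGGCG, the site of Egr proteins, was in 8 (29.6%, against 8.28%), and the NF-kappaB site in 6 (22.2%, against 4.23%). Both strands were searched, base composition was not matched, and a match is a description of letters, not of binding.

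Most members were short genes, and most carried an AU-rich heptamer in the 3′ UTR. Transcripts of the 35 tested members, taken from GENCODE M21, had a median of 4 exons over a genomic span of 5260 bases, against 8 exons over 18990 bases in 11799 tested genes. Of the 35, 4 had a single exon (Junb, Ier2, Ier5 and Jun). The heptamer TATTTAT, the core of the element that Zfp36 proteins bind, occurred in the 3′ UTR of 22 of 35 members (62.9%) and of 26.8% of 10908 tested genes with a 3′ UTR. Median 3′ UTR length was 1200 bases in members and 955 bases in those genes, and the heptamer occurred 0.844 times per kilobase in members against 0.283. Sites of 9 members are shown, each the 29 bases of the 3′ UTR with the most matches, written as DNA with the heptamer in capitals, on GRCm38.
Fos 3′ UTR site, chr12:85477101-85477129, plus strand: tgtgttttcaattTATTTATtaagatgga
Fosb 3′ UTR site, chr7:19303326-19303354, minus strand: ccacccccagcTATTTATccctttcctgg
Jun 3′ UTR site, chr4:95049079-95049107, minus strand: ttgcttgtgcaTATTTATaatagcgttcg
Klf6 3′ UTR site, chr13:5868490-5868518, plus strand: gctacgtctctTATTTATgccttgaggac
Cd69 3′ UTR site, chr6:129267933-129267961, minus strand: tctagagttacTATTTATtgccgaatgac
Dusp1 3′ UTR site, chr17:26506158-26506186, minus strand: agctggtcctTATTTATttaacacccccc
Pim1 3′ UTR site, chr17:29495691-29495719, plus strand: taatgTATTTATTTATTTATTTATttggt
Ppp1r15a 3′ UTR site, chr7:45522951-45522979, minus strand: cctatTATTTATTTATTTATTTATttgaa
Zfp36 3′ UTR site, chr7:28376959-28376987, minus strand: ccttTATTTATgacgacttTATTTATtgt

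Pim1 and Ppp1r15a each carried 4 overlapping copies in the window shown, and Zfp36 itself, whose protein binds this element, carried 2. Fosb, Jun and Cd69 had a single copy in the whole 3′ UTR, and Junb, Ier2, Dusp6, Egr1 and Egr2 had none.

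Immediate early transcripts were abundant in these unstimulated cells of both genotypes. Per kilobase of transcript, 28 of the 35 tested members lay above the median tested gene in WT cells, and 16 lay in the top 10%. The median member had a level of 1213 normalized reads per kilobase in KO cells and 1187 in WT cells, and the median tested gene 237 in KO cells and 228 in WT cells. The highest levels per kilobase were those of Btg1 (14321 in KO, 16171 in WT) and Junb (12104 in KO, 16268 in WT), followed in WT by Cd69, at 5809 in KO and 8008 in WT. In KO cells Nfkbia (6064) and Dusp2 (5904) lay above Cd69. At the other end were Nfkbiz (12.4 in KO, 16.9 in WT), Ier3 (32.3 in KO, 13.1 in WT) and Atf3 (16.1 in KO, 4.94 in WT). Fosl1, Egr3 and Nr4a2 had a mean under 10 normalized reads over the 6 libraries and were not tested. Fosl1, a Fos relative, was at 2.14, 0 and 0.797 in KO libraries and 4.18, 4.40 and 0.772 in WT libraries. Egr3 was at 7.97 to 10.2 in KO libraries and 8.80 to 11.6 in WT libraries, and Nr4a2 at 5 to 7.29 in KO libraries and 1.54 to 7.70 in WT libraries.

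**Figure D1:**
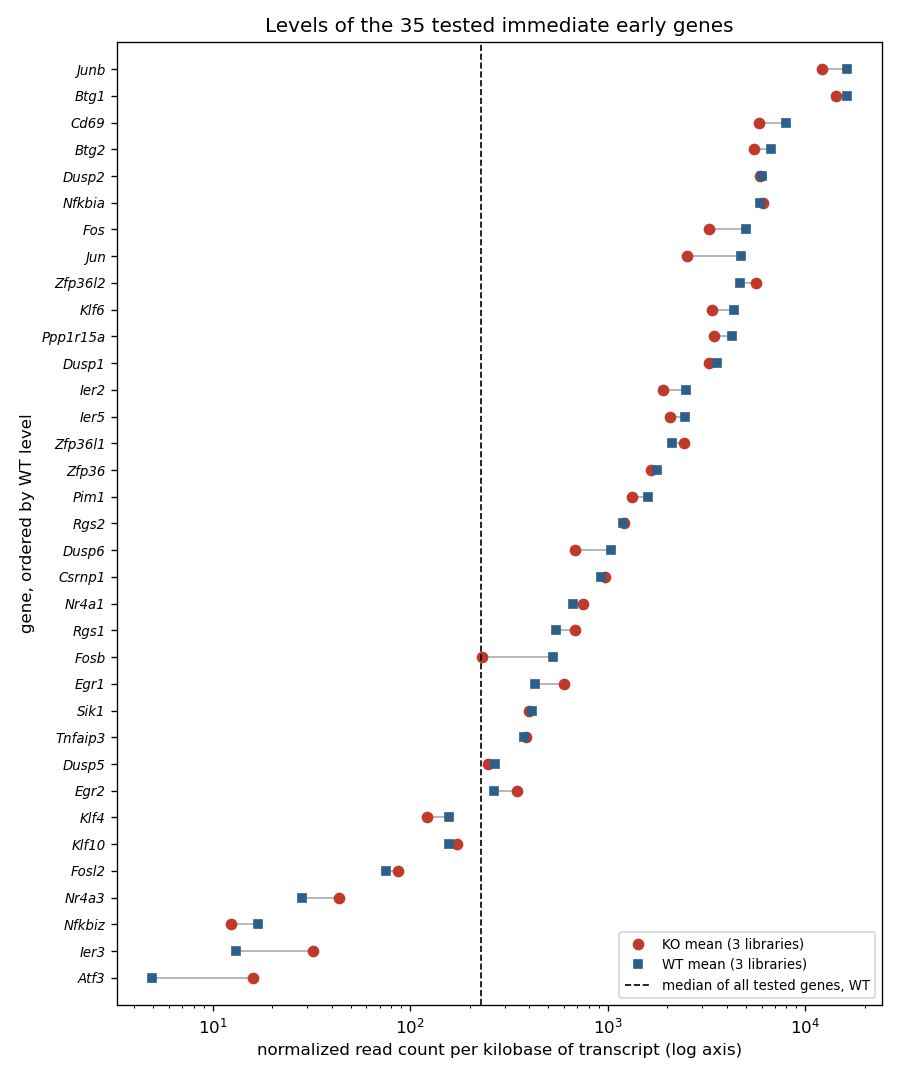
Mean level of each of the 35 tested immediate early genes, in normalized reads per kilobase of transcript on a log axis, with KO as circles, WT as squares (means of 3 libraries each) and the WT median of all tested genes as a dashed line at 228. In WT cells 28 of the 35 lay right of that line, Junb and Btg1 farthest, and Atf3 lay farthest left.

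With all 6 libraries, no member passed the test. Rows were compared with limma on the log2 scale, after a pseudocount of 1 was added to each normalized read count, with Benjamini-Hochberg adjustment over 13022 rows and a threshold of 0.05. Of the 35 members tested, 0 were called higher and 0 lower, where 1.51% of all tested rows were called, 1.19% higher and 0.315% lower. Unadjusted p-values under 0.05 were reached by 10 members, 9 of them lower and 1 higher in KO cells, against 5.84% of all rows lower and 6.84% higher. The 3 KO values lay below the 3 WT values in 7 members and above them in 1, against 9.58% and 9.21% of all rows (18.8% in either direction). The median log2 fold change was -0.09 over the members, with 20 negative and 15 positive, and 0.0019 over all tested rows. Under adjusted p-values below 0.1, Jun and Ier2 were called lower, where 0.614% of all rows were. An exact permutation test of 3 libraries against 3 cannot give a two-sided p below 0.1.

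The count called lower moved most when KO3 was left out. Without KO3, limma called 7 members lower and 0 higher, where 4.32% of all rows were called, 1.55% lower and 2.76% higher. The 7 were Fosb, Jun, Fos, Dusp6, Junb, Ier2 and Klf6, with log2 fold changes of -1.71, -1.01, -0.92, -0.73, -0.64, -0.43 and -0.45, and the median over the members was -0.21. Without WT2, Jun alone was called lower, where 0.131% of all rows were, and without KO1, KO2, WT1 or WT3 no member was called. Among the 4 libraries with nearly no Y-linked transcripts (KO1 and KO3 against WT2 and WT3), 0 members and 0.253% of all rows were called, and Jun had a log2 fold change of -0.78 and Fosb of -1.16. The pair with such transcripts (KO2 and WT1) is 1 library against 1 and allows no test. The values of CD8, B cell and other markers given above moved with KO3, and their part in these counts was not tested.

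**Figure D2:**
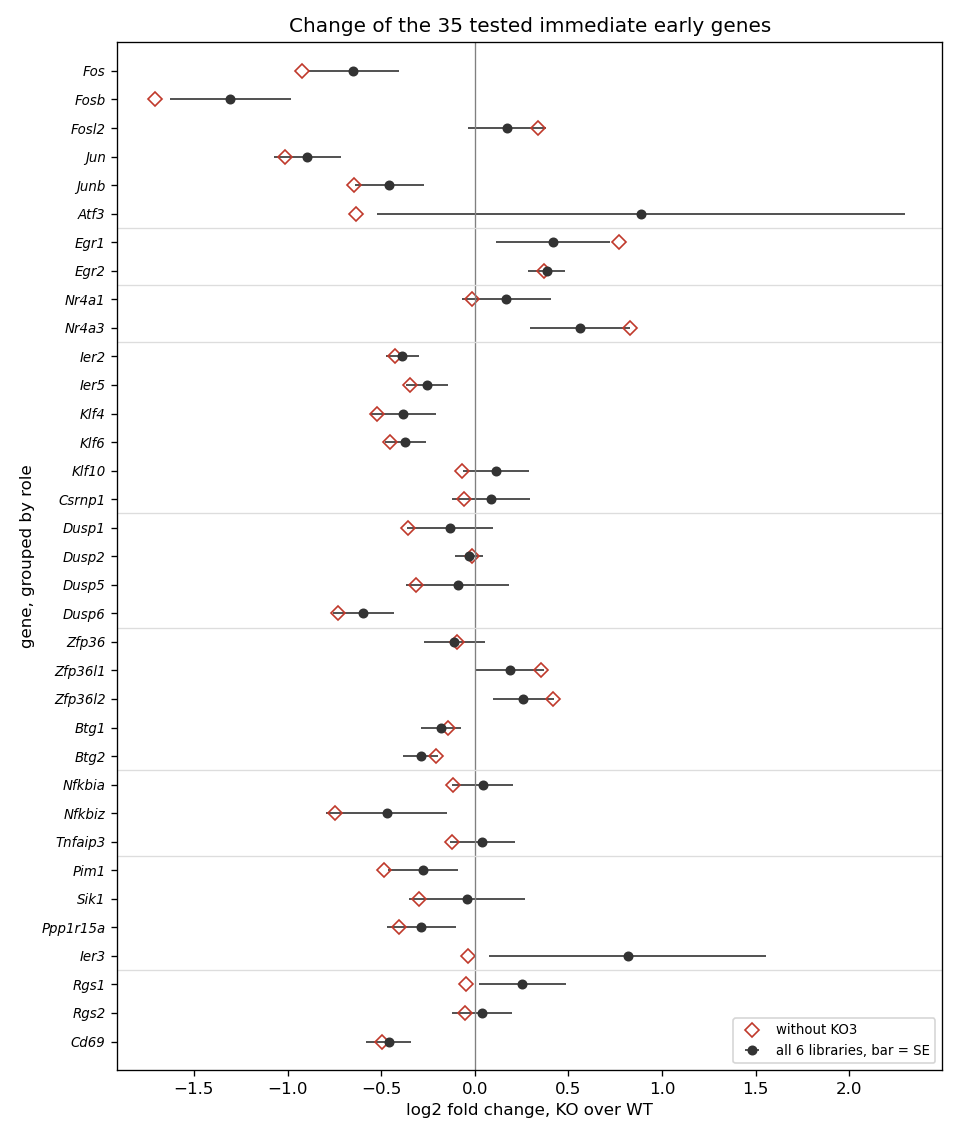
Log2 fold change (KO over WT) of the 35 tested members, grouped by role. Filled circles with SE bars are the fit with all 6 libraries (3 per group), and open diamonds the fit without KO3. Fosb lies farthest left, at -1.31 with all libraries and -1.71 without KO3. With all libraries 15 members lie right of 0, and without KO3 6 do. Atf3 is among those that change side.

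Among the AP-1 genes, the classical partners Fos, Fosb, Jun and Junb all had lower means in KO cells, and Fosl2 and Atf3 did not. None of the 6 tested passed with all libraries, and 4 were called lower without KO3. Fosb (chr7:19302696-19310118, mm10), a Fos relative that pairs with Jun proteins, was at 529.8, 686 and 1396 normalized reads in KO1, KO2 and KO3, against 2082, 1541 and 2397 in WT1, WT2 and WT3. The groups did not overlap, and KO1 and KO2 were the low libraries. Its KO mean was 43.4% of the WT mean, with a log2 fold change of -1.31 (SE 0.32, n = 3 per group, adjusted p 0.119 in limma). Jun (chr4:95049036-95052222, mm10), the partner that can also bind DNA as a pair with itself, was at 7614, 7066 and 9388 in KO libraries, against 15489, 11378 and 18419 in WT libraries. The groups did not overlap, and WT2 was the lowest WT library. Its KO mean was 53.1% of the WT mean, and its log2 fold change of -0.89 (SE 0.18) came closest to the threshold, at an adjusted p of 0.0539. Over 21 alternative settings its adjusted p ran from 0.00822 to 0.792 and its log2 fold change from -1.09 to -0.74.

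Fos, the founding member of the family, was at 5627, 5307 and 9628 in KO libraries, against 10196, 8221 and 13248 in WT libraries. KO3 lay above WT2, so the groups overlapped, while KO1 and KO2 lay below every WT library. Its log2 fold change was -0.65 (SE 0.24, adjusted p 0.309), and without KO3 it was -0.92. Junb, a Jun relative and weaker activator, was at 21930.4, 16075 and 27683 in KO libraries, against 27198, 27903 and 33187 in WT libraries. Here too only KO3 reached into the WT range. Fosl2, another Fos relative, was at 438 to 748 in KO libraries and 407 to 560.1 in WT libraries, with a log2 fold change of 0.17 (SE 0.21). Atf3, a stress-induced partner of Jun, was nearly silent except in 1 library per group, at 5, 1.46 and 89.3 in KO libraries and 2.79, 1.10 and 25.5 in WT libraries. It passed the filter on low values through KO3 and WT3.

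**Figure D3:**
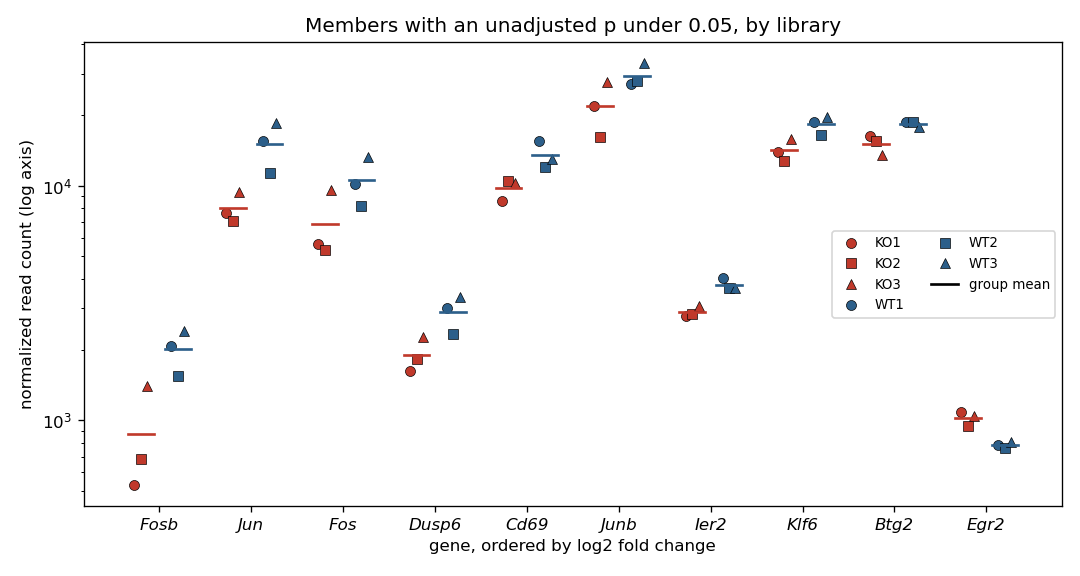
Normalized read counts on a log axis, by library, of the 10 members with an unadjusted p under 0.05, KO left of WT for each gene, with symbols for the replicate number and bars for the group means of 3 libraries. KO and WT points do not overlap except for Fos and Junb, where KO3 reaches into the WT range, and Egr2 alone has its KO points above its WT points.

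The Egr and Nr4a genes, which encode zinc finger factors and orphan nuclear receptors induced by antigen receptor signals, had higher means in KO cells in the 4 that were tested, and none of the 4 passed. Egr2, which also restrains T cell activation, was at 1085, 949 and 1047 in KO libraries, against 782, 764 and 812 in WT libraries. Its groups did not overlap, and the KO mean was 131% of the WT mean (log2 fold change 0.38, SE 0.10, adjusted p 0.13). Egr1 was at 2619.6, 1803 and 1044 in KO libraries, against 1047, 1645 and 1204 in WT libraries. KO1 and KO2 lay above every WT library, while KO3 was the lowest of all 6, so the groups overlapped through KO3. Nr4a3, at 352, 235 and 164 in KO libraries and 142, 190.4 and 154 in WT libraries, had the same order of KO libraries as Egr1, and its log2 fold change was 0.56 (SE 0.27, adjusted p 0.434). In Nr4a3 too, KO1 and KO2 lay above every WT library, and KO3 lay inside the WT range. For Nr4a3 the log2 fold change was 0.28 without KO1 and 0.83 without KO3. For Egr1 it was 0.42 with all libraries, 0.11 without KO1 and 0.77 without KO3. Without KO3 the adjusted p in limma was 0.0565 for both genes. Nr4a1, also called Nur77 and used as a reporter of antigen receptor signalling, was at 1891, 1332 and 2329.7 in KO libraries and 1705, 1192 and 2031 in WT libraries. Its spread within each group exceeded the difference between them, and its log2 fold change of 0.17 with all libraries was -0.02 without KO3.

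Among the other nuclear factors, Ier2, Klf6, Ier5 and Klf4 had lower means in KO cells, and Klf10 and Csrnp1 did not. None of the 6 passed with all libraries, and Ier2 and Klf6 were called lower without KO3. Ier2, a nuclear protein of the early response, was at 2780.2, 2846 and 3058 in KO libraries, against 4052, 3649 and 3659.7 in WT libraries. Its replicates lay close together and the groups did not overlap (log2 fold change -0.39, SE 0.09, adjusted p 0.0873). Klf6, a zinc finger factor, was at 13852, 12782 and 15834 in KO libraries, against 18681, 16509.5 and 19629 in WT libraries. Its groups did not overlap either, and its log2 fold change was -0.37 (SE 0.11, adjusted p 0.189). Ier5, which acts with the heat shock factor, was at 6333 to 7615 in KO libraries and 7169 to 8876 in WT libraries, and Klf4, a factor that can restrain proliferation, at 299 to 442 in KO libraries and 411 to 550.0 in WT libraries. Both overlapped in a single KO library, KO3. Klf10, induced by transforming growth factor beta, had a log2 fold change of 0.11 (SE 0.18) and the nuclear factor Csrnp1 one of 0.09 (SE 0.21).

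The dual-specificity phosphatases switch off MAP kinases. None of the 4 passed with all libraries, and Dusp6 was called lower without KO3. Dusp6, which acts on ERK in the cytoplasm and reads out its activity, was at 1621, 1832 and 2266 in KO libraries, against 2997, 2324 and 3342 in WT libraries. KO3 and WT2 nearly met, but the groups did not overlap, and the KO mean was 66.0% of the WT mean (log2 fold change -0.60, SE 0.16, adjusted p 0.16). Dusp2, a nuclear phosphatase with the highest level of the 4, was at 9469, 9809 and 9363 in KO libraries and 9984, 9859 and 9420.4 in WT libraries. Its log2 fold change was -0.03 (SE 0.08), and its libraries differed little in either group. Dusp1, the stress-induced phosphatase of p38 and JNK, was at 5347 to 8635 in KO libraries and 5133 to 8649 in WT libraries, and Dusp5, a nuclear ERK phosphatase, at 471 to 815 in KO libraries and 432 to 865 in WT libraries. In both, the highest and lowest values of the 2 groups nearly coincided.

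The genes for messenger RNA decay and antiproliferative proteins differed among themselves, and none of the 5 passed with all libraries or without KO3. Btg2, an antiproliferative partner of the deadenylase complex, was at 16230.0, 15574 and 13458 in KO libraries, against 18685, 18731 and 17747 in WT libraries. The groups did not overlap, and its log2 fold change was -0.29 (SE 0.10, adjusted p 0.242). Btg1, its relative that keeps T cells quiescent, was at 80006, 67162 and 67686 in KO libraries and 77766, 79996 and 84854 in WT libraries, and KO1 lay inside the WT range. Zfp36, also called tristetraprolin, had a log2 fold change of -0.11 (SE 0.16), against 0.19 (SE 0.18) for Zfp36l1 and 0.26 (SE 0.16) for Zfp36l2. Zfp36l2, needed with Zfp36l1 in thymocyte development, was highest in KO1 and KO2, at 23309.8 and 20506, and was at 15718 in KO3 and 14555 to 19400.3 in WT libraries.

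None of the 3 feedback inhibitors of NF-kappaB passed, and KO and WT values overlapped in each. Nfkbia, which encodes the inhibitor I-kappaB-alpha, was at 8031, 8917 and 11758 in KO libraries and 10093, 7559.9 and 10122 in WT libraries. Nfkbiz, a nuclear I-kappaB protein, was at 30.7, 40.8 and 63.8 in KO libraries and 66.9, 46.2 and 70.3 in WT libraries, with a log2 fold change of -0.47 (SE 0.32, adjusted p 0.596). Tnfaip3, the ubiquitin-editing enzyme A20, had 2 rows. The one with the higher total was at 1470.4 to 2075 in KO libraries and 1439 to 1995 in WT libraries. The other was at 872, 938 and 1277 in KO libraries and 1548, 1159 and 1421 in WT libraries (log2 fold change -0.43, SE 0.17, adjusted p 0.327). Reads that both transcripts share could count for either or for neither, since their handling is not stated in the labels.

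None of the 4 kinases and stress regulators passed. Ppp1r15a, which restarts translation after stress by directing a phosphatase to eIF2-alpha, was at 7842, 6840.3 and 9383 in KO libraries, against 8739, 8109 and 12846 in WT libraries. The groups overlapped in KO3, and the log2 fold change was -0.28 (SE 0.18, adjusted p 0.572). The survival kinase Pim1 had a log2 fold change of -0.28 (SE 0.19) and the salt-inducible kinase Sik1, which restrains CREB coactivators, one of -0.04 (SE 0.31). Ier3, a regulator of cell survival, was at 15.0, 11.7 and 82.9 in KO libraries and 6.97, 19.8 and 17.8 in WT libraries. Its KO mean exceeded its WT mean through KO3 alone, and without KO3 its log2 fold change was -0.04.

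Cd69 encodes the early activation receptor that holds T cells in lymphoid tissue by removing an exit receptor from the surface. It was at 8642, 10483 and 10275 in KO libraries, against 15486, 12001 and 13041 in WT libraries. The groups did not overlap, the KO mean was 72.5% of the WT mean, and the log2 fold change was -0.46 (SE 0.12, adjusted p 0.146). The 2 regulators of G protein signalling did not show this. Rgs1 was at 1879, 2184 and 3773 in KO libraries and 1853 to 2340.4 in WT libraries, with KO3 above all others. Rgs2 was at 3078 to 4136 in KO libraries and 3052 to 4427 in WT libraries.

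Much of the variation among the members ran between libraries of the same genotype. KO3 was the highest KO library in 24 of 35 members, against 37.7% of all tested rows, and WT2 was the lowest WT library in 22, against 35% of rows. Both held together in 20 members, where 19.6% of all rows had this order. These 20 included Fos, Fosb, Jun, Atf3, Nr4a1, Dusp1, Dusp5, Dusp6, Klf6, Sik1, Pim1, Nfkbia, Tnfaip3 and Ppp1r15a. The opposite order, KO3 lowest of KO and WT2 highest of WT, was found in 6 members, Fosl2, Egr1, Nr4a3, Zfp36l1, Zfp36l2 and Btg2, and in 19.8% of all rows. The median of KO3 minus the mean of KO1 and KO2 was 0.39 on the log2 scale over the members and 0.0066 over all rows. The median of WT2 minus the mean of WT1 and WT3 was -0.24 over the members and 0.0039 over all rows. Within groups, the median SD on the log2 scale was 0.29 in KO and 0.24 in WT libraries over the members, against 0.21 and 0.16 over all rows. Members of 1 library share its depth and preparation, so these counts describe 6 libraries and not 35 independent genes.

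Markers of other cells had part of the same order. WT2 had the lowest sums of the WT libraries for CD8 T cells (561), B cells (171), myeloid cells (103) and dendritic cells (110), and KO3 the highest of the KO libraries for each, at 4416, 1467, 715 and 696. KO3 was also the highest KO library for markers of NK cells (1533), regulatory T cells (4445) and activated or memory T cells (11479). But WT2 was the highest WT library for these 3 lists, at 967, 1894 and 8480. Single markers differed. Of the KO libraries, KO3 had the lowest Foxp3 (2.39) and Ikzf4 (245) and the highest Ikzf2 (3249), Il2ra and Ctla4. Foxp3 rests on few reads, with a mean of 7.87 over all libraries, and was not tested. Cd40lg was also lowest in KO3 (1912), Cd44 lay between, and the other activated or memory markers were highest there. Myeloid markers summed to 106 in KO1, 96.2 in KO2, 704 in WT1 and 344 in WT3. Fewer cells of a type and less RNA per cell cannot be told apart in such libraries. The part of these cells in the order of the members was not tested.

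**Figure D4:**
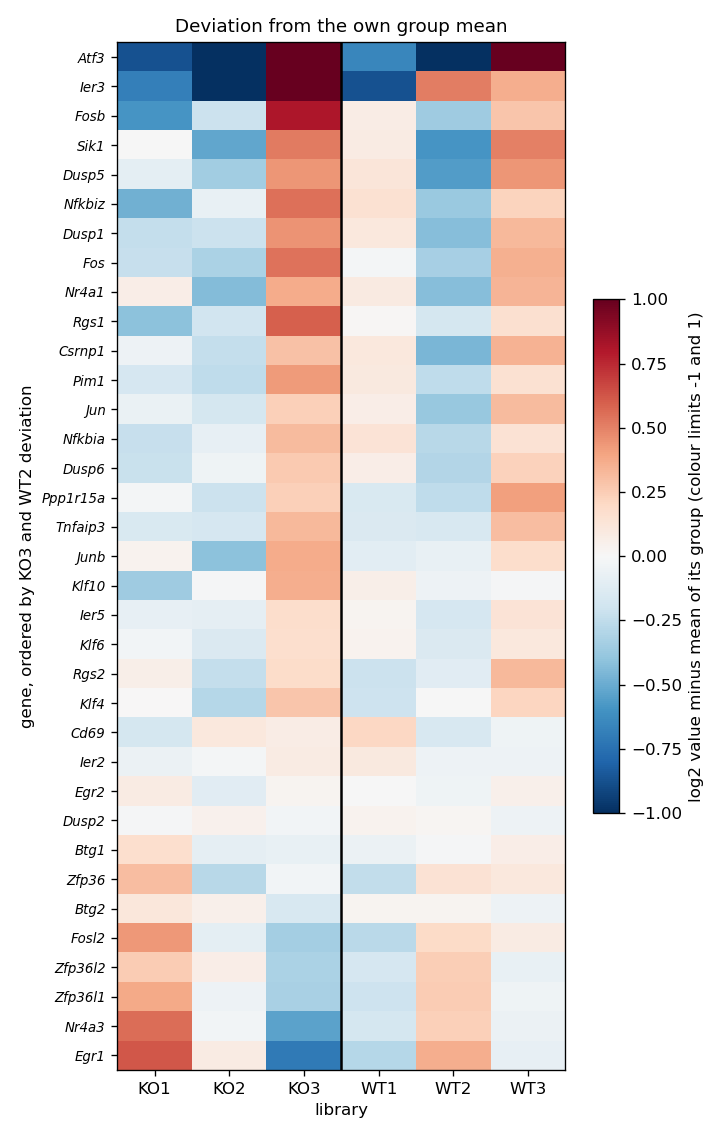
Log2 value of each tested member minus the mean of its own group, for KO1 to KO3 and WT1 to WT3, with red above and blue below the group mean and colours limited at -1 and 1. Most rows are red in KO3 and blue in WT2, and the rows of Egr1, Nr4a3, Zfp36l1, Zfp36l2 and Fosl2 at the bottom show the reverse.

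The machinery that induces these genes and other early-response genes were measured in the same fit. Of 33 tested inducers, from Ras and ERK components to SRF, CREB, NFAT and calcineurin, limma called 0, where 1.51% of all rows were. Nfatc1, Nfatc2 and Mapk9 matched no row, so Nfatc3 alone stood for NFAT. Creb1 and Hras had low means, at 62.1 and 19.5 normalized reads over all libraries. At an unadjusted p under 0.05, 1 was higher and 2 lower, against 6.84% and 5.84% of all rows. The median log2 fold change was 0.08. Rasgrp1, which activates Ras downstream of the antigen receptor, was at 17642, 14969 and 13824 in KO libraries, against 18072, 20514 and 18648 in WT libraries (log2 fold change -0.31, SE 0.11, adjusted p 0.288). Its groups did not overlap. Ppp3r1, the regulatory subunit of calcineurin, had a log2 fold change of 0.48 (SE 0.19) and the ERK kinase Map2k2 one of -0.18 (SE 0.08). Without KO3, 1 inducer was called higher, where 2.76% of all rows were, and the median over the inducers was 0.22.

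Of 32 further early-response genes tested, 0 were called, where 1.51% of all rows were. At an unadjusted p under 0.05, 2 were higher and 2 lower, against 6.84% and 5.84% of all rows. The median was -0.02 (-0.10 without KO3). Bhlhe40, a repressor induced by T cell activation, was at 103, 80.1 and 411 in KO libraries, against 26.5, 16.5 and 57.9 in WT libraries, and KO3 and WT3 were the highest of their groups (log2 fold change 2.31, SE 0.64, adjusted p 0.163). Klf2, which keeps T cells quiescent and circulating, was at 7868, 6865 and 6897 in KO libraries, against 8376, 8631 and 8758 in WT libraries (log2 fold change -0.25, SE 0.09, adjusted p 0.26). Spry1, an inhibitor of Ras signalling, had a log2 fold change of 0.52 (SE 0.20). Without KO3, 1 gene of this list was called lower, where 1.55% of all rows were.

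Of 18 heat shock chaperone genes, 1 was called lower, where 0.315% of all rows were. At an unadjusted p under 0.05, 5 were lower and 1 higher, against 5.84% and 6.84% of all rows, and the median log2 fold change was -0.09. Without KO3, 2 chaperone genes were called higher and 2 lower, against 2.76% and 1.55% of all rows, with a median of -0.03. The 1 called was Hspa1a, at 84.2, 56.8 and 43.8 in KO libraries, against 264, 376 and 395 in WT libraries, where KO3 was the lowest library and so did not have the order that most members had. Of 14 subunits and regulators of NF-kappaB, 1 was called higher, where 1.19% of all rows were, and 4 were higher at an unadjusted p under 0.05, against 6.84% of all rows, with a median of 0.17. Without KO3, 2 of them were called higher, where 2.76% of all rows were, with a median of 0.21. The 1 called was Traf1, an adaptor of tumor necrosis factor receptors, at 6539, 5045 and 5668 in KO libraries, against 3285, 3908 and 3498 in WT libraries. These values stand beside those of the members, and no difference between the lists was tested.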

How the data were processed

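RNA-seq of 6 mouse libraries was used, 3 KO and 3 WT. The submitters named STAR, HTSeq and DESeq2 and the genome build mm10 in their processing notes, without roles or versions. Their deposited table holds 19048 rows in 6 columns on a log10 scale. Turned back as 10 to the power of the value minus 1, 100% of values were whole multiples of 1 step per library (tolerance 0.01), so each is the log10 of 1 plus reads divided by a size factor. Strand setting and handling of shared reads are not given in the sources used here.

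A RefSeq gene table of GRCm38.p6 named 18811 rows and GENCODE M21 a further 104. 133 rows, with 2.70% of values, stayed unnamed. limma 3.58.1 in R 4.3.3 was fitted over all 6 libraries after 1 was added to each normalized read count and log2 taken, with the mean-variance trend, for rows with a mean of at least 10, two-sided, and was tested on simulated data. Fold changes on this scale understate low genes. Members and lists were chosen with earlier results of these data known. Values in every library are given for members with an unadjusted p under 0.05 and for the member with the highest mean and the smallest p of each role. Atf3, Ier3, Fosl1, Zfp36l2, Rgs1 and Tnfaip3 were added after their values were seen. Alternatives were the pseudocount, filter, scaling, variance model, voom weights, replicate block, Y-linked covariate, summed rows, threshold and left-out libraries. The fit on libraries with nearly no Y-linked transcripts was chosen after seeing the data.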

Additional observations from a re-analysis of the deposited data

How the results depend on the processing

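The count of immediate early genes called higher was 0 with all libraries and in each of 21 alternatives, and in 17 of these no member was called lower either. The count called lower was 3 with the replicate number as a block, where 32 of 13022 rows were called lower. It was 2 at adjusted p under 0.1, where 0.614% of all rows were. With 1 library left out it was 0 to 7. It was 7 without KO3, where 1.55% of all rows were called lower, and 1 without WT2, where 0.131% were. The members' median log2 fold change ran from -0.21 without KO3 to 0.0321 without WT3, and was above 0 in 3 alternatives. Counts of called rows over the whole table were 196 with all libraries, 124 without the mean-variance trend, 33 among the 4 libraries with nearly no Y-linked transcripts, and 114 to 562 with 1 library left out (114 without KO2, 124 without WT1, 127 without WT3, 562 without KO3). The replicate numbers are not stated to pair libraries. Deviations of same-numbered libraries correlated at -0.31, 0.26 and 0.36, and KO1 correlated best with WT2 (0.37). Y-linked transcripts fell in KO2 and WT1, whose numbers differ. These values give no ground for pairs by number, and the block is given only as an alternative setting. With it, Jun, Fos and Fosb were called lower (adjusted p 0.00822, 0.0382 and 0.0402 in limma). Their log2 fold changes and adjusted p over all alternatives ran from -1.09 to -0.74 and 0.00822 to 0.792 for Jun, from -0.92 to -0.47 and 0.0141 to 0.988 for Fos, and from -1.71 to -1.01 and 0.000439 to 0.948 for Fosb. The cause of these changes was not tested. The values of Fosl1, Egr3 and Nr4a2 rest on few reads, as 1 read was worth 0.714 to 1.46 normalized reads. The part of depth or of reads shared between rows in their low values was not tested.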
